A study of Mus musculus with 4 samples.

Results

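Hlf, Mecom, Meis1, Hoxb5, Tcf15, Erg, Fli1, Mllt3 and Gata3 are nuclear regulators known for marking or maintaining hematopoietic stem cells (HSCs). These 9 genes were picked by symbol from the 28692 genes counted in single cells of 4 pools of mouse bone marrow, and each symbol matched 1 gene. The pools were hematopoietic stem and progenitor cells (HSPCs) of male C57BL/6-CD45.2 mice, sorted as Lin-Sca1+cKit+ Flt3- cells and sequenced by 10x Genomics 3' chemistry. Both young pools came from mice of 2 to 3 months and both aged pools from mice of 17 to 18 months. For each age, the pool named A was made on the HalioDX platform and that named B on the TGML platform. By the study's methods, aged A and young B had more reads per cell and more mice than young A and aged B. Throughout, 4 values in a row belong to young A, young B, aged A and aged B, in that order. The labels give no genotype besides the strain and no treatment. Each pool combined several mice, so no p-value measures the spread between animals. Those of the tests between ages rest on 2 pools per age. Those between cell classes rest on how differences within a pool varied over the 4 pools of both ages. Contrasts with erythroid, megakaryocyte, neutrophil and mast classes came from 1 fit over 7 classes. Their spread is thus pooled over all 7 classes, also those outside the contrast. The comparisons below ask whether the level of these factors differed with age, between cell classes and between dividing and non-dividing cells.

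In blood formation a small number of HSCs renews itself while its daughters take on lineage programs, and transcription factors that bind together at shared enhancers hold the quiescent, uncommitted state. Homeobox factors of the Hox and Meis families bind with Pbx partners, and the Ets factors Erg and Fli1 bind with Gata, Tal1, Lmo2 and Runx1 at stem cell enhancers. Mecom, Hlf and Tcf15 are known for their link with quiescence, Mllt3 for keeping active chromatin at stem cell genes, and Gata3 for its roles in HSC cycling and T cell commitment.

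Promoter sequences in RefSeq (build GRCm38.p6, 250 bases before to 50 after an annotated start) matched 6 of the 9 symbols, with 10 starts in all. Hlf, Meis1 and Gata3 had 1 start, Mecom and Mllt3 had 2 and Erg had 3. Sequences are shown for Hlf and Meis1, whose promoters hold an Ets core, and for both starts of Mecom and Mllt3, since counts of 3' ends add the transcripts of all starts of a gene. They are written 5' to 3' on the strand of the gene, with matches to the core motifs of the factors themselves in capitals.
Hlf (chr11:90390868-90391167, minus strand): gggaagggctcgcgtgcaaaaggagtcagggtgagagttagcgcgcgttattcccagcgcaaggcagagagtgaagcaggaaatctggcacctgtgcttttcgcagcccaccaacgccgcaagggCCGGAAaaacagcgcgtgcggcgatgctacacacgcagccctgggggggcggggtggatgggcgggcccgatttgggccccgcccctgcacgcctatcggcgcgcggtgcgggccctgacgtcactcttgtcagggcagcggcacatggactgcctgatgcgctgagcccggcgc
Meis1 (chr11:19018920-19019219, minus strand): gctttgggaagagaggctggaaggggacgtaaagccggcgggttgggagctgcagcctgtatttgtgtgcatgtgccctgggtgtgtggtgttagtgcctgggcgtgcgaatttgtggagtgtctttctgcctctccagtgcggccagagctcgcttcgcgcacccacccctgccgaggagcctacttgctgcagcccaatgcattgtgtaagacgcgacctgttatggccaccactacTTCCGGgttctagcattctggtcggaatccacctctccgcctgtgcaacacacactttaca
Mecom (chr3:30509710-30510009, minus strand): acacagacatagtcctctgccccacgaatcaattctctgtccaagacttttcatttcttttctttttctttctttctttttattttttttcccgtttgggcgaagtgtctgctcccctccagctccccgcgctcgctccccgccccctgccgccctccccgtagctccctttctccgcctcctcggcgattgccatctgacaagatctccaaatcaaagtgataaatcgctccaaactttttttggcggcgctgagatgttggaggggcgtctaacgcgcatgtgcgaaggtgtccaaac
Mecom (chr3:30013155-30013454, minus strand): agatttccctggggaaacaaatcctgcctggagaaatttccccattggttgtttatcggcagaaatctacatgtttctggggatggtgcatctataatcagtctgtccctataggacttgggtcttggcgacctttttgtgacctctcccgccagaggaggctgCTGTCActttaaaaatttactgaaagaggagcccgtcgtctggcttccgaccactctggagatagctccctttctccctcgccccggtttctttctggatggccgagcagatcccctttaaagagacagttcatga
Mllt3 (chr4:88033358-88033657, minus strand): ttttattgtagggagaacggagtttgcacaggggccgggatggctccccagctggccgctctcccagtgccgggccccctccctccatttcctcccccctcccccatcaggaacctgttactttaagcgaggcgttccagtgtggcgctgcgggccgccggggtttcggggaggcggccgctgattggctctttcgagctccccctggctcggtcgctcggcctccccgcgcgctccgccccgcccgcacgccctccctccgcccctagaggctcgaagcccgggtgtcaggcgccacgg
Mllt3 (chr4:87806274-87806573, minus strand): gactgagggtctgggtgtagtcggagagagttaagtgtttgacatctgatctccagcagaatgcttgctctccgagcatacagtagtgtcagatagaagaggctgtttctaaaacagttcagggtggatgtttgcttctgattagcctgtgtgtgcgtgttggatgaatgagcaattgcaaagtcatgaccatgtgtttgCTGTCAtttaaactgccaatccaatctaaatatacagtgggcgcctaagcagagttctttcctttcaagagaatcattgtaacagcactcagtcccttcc

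The motifs searched on both strands were CCGGAA for Ets factors, AGATAA for Gata factors, TGACAG for Meis and TTACNTAA for Hlf, and they do not overlap one another in the sequences shown. The Ets core was at 3 of the 10 starts (those of Hlf, Meis1 and Gata3), against 14.9% of the 32851 promoters of the same length. The Meis core was also at 3 of the 10 starts (1 each of Mecom, Mllt3 and Erg), against 19.2% of all promoters. The Gata core was at 1 start of Erg, against 11.2%, and the Hlf motif was at none of the 10 starts, against 2.32% of all promoters. These matches describe letters in a 300-base window and are no measure of binding.

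After barcodes with unusually many or few UMIs for their pool were dropped, 5189, 2244, 3328 and 4154 cells were kept, of 15566 barcodes. A UMI (unique molecular identifier) marks 1 captured transcript molecule, and the median per kept cell lay between 5674 and 6719. The titles and source names set the ages used here, although the free-text descriptions of young B and aged A contradict them. After its own filtering, the paper counted 5189 and 2244 young and 3328 and 4154 aged cells. These equal the numbers kept here under the ages of the titles. By these ages, Cd48 was at 76.8, 69.5, 31.6 and 11.6 CPM and Procr at 96.4, 117, 187 and 201 CPM, without overlap between ages for either gene. Any 2 pools shared between 10 and 29 barcodes. The sort markers Kit (71.7 to 164 CPM, the summed UMIs of a gene scaled to the same total in each pool) and Ly6a, which encodes Sca1 (164 to 355 CPM), were present in all pools, while the T cell gene Cd3e did not exceed 0.241 CPM. Flt3, selected against in the sort, was highest in young A and lowest in aged B (2.40 CPM). Sets of 6 markers each summed to 1.10 to 3.75 CPM for stromal cells and 9.48 to 17.1 CPM for macrophages. Endothelial markers summed to 45.9 to 104 CPM, mostly of Pecam1 and Emcn, which HSCs also express, while the endothelial gene Cdh5 was at 0 UMIs in both B pools.

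Summed over all cells of a pool, 4 of the 9 factors lay higher in aged A and aged B than in either young pool, which held for 18.1% of the 13555 genes tested. These were Mllt3, Hoxb5, Fli1 and Gata3, and no factor lay lower in both aged pools. No factor passed the test between ages (edgeR's quasi-likelihood test, blocked by platform, with p-values adjusted over all genes by Benjamini-Hochberg and a threshold of 0.05), which called 2.03% of genes in either direction and 1.6% as higher in aged pools. At an unadjusted p under 0.05, 4 of the 9 factors passed, beside 2175 of the 13555 genes tested. DESeq2 with the same terms called 3 factors as higher in aged pools, Mllt3, Hoxb5 and Tcf15, beside 2.74% of all genes. Of the genes called by edgeR, 78.9% were higher in aged pools, a share that was 94.6% with scaling by total counts (74 genes called) and 68.3% with DESeq2 (543 genes called). The median log2 difference was 0.49 over the 9 factors and 0.012 over all genes tested. In sums over a pool, more cells of a type and more RNA per cell cannot be told apart.

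Mllt3 (chr4:87769925-88033364, minus strand) encodes a YEATS-domain reader of acylated histones that recruits the elongation machinery. Its level was 135, 120.1, 322 and 321 CPM. Both aged pools lay well above both young pools, and in these values the pools of 1 age were close to each other across platforms. With TMM scaling, which edgeR uses to set libraries on 1 scale, the levels were 129, 130, 282 and 354 CPM. On that scale the aged pools lay further apart. The log2 difference between ages was 1.29 ± 0.197 (SE, edgeR adjusted p = 0.0540), just outside the threshold of 0.05, and 1.26 on platform A and 1.42 on platform B.

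Among the homeobox factors, Hoxb5 (chr11:96303336-96306121, plus strand), whose reporter marks long-term HSCs, was at 10.2, 13.3, 21.4 and 30.0 CPM. The aged pools lay above the young pools without overlap, at a log2 difference of 1.07 ± 0.178 (SE, edgeR adjusted p = 0.0618). Meis1 (chr11:18879817-19018985, minus strand), a cofactor of Hox proteins, was at 239, 168, 305 and 203 CPM. Within each platform the aged pool was above the young one, but young A lay above aged B, and the log2 difference was 0.26 ± 0.182 (SE, edgeR adjusted p = 0.596).

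Of the Ets factors, Fli1 (chr9:32422204-32542861, minus strand), which also drives megakaryocyte genes, was at 90.5, 77.1, 166 and 108 CPM. Aged A was highest and the groups did not overlap, at a log2 difference of 0.63 ± 0.172 (SE, edgeR adjusted p = 0.169). Its close relative Erg (chr16:95359169-95586593, minus strand), needed for HSC maintenance, was at 66.6, 47.2, 83.1 and 45.5 CPM. The pools separated by platform and not by age, with both A pools above both B pools, and the log2 difference between ages was 0.32 on platform A, -0.054 on platform B and 0.081 ± 0.163 (SE, edgeR adjusted p = 0.869) in the fit.

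Mecom (chr3:29951296-30548008, minus strand), a zinc finger factor also known as Evi1, was at 48.6, 52.4, 104 and 51.8 CPM. Aged A stood apart from the other 3 pools, which were close to each other. The log2 difference was 1.09 on platform A, -0.019 on platform B and 0.49 ± 0.268 (SE, edgeR adjusted p = 0.487) in the fit. Hlf (chr11:90336536-90390895, minus strand), a leucine zipper factor of the PAR family, was at 196, 203, 275 and 196 CPM. Here too aged A was the only pool apart, at log2 differences of 0.49 on platform A and -0.055 on platform B and 0.17 ± 0.201 (SE, edgeR adjusted p = 0.774) in the fit. With TMM scaling, aged B exceeded young B for Mecom by a narrow margin (57.0 against 56.9 CPM). On that scale 5 factors, with Mecom, lay higher in both aged pools than in either young pool, as did 2321 of the 13555 genes.

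Gata3 (chr2:9857078-9890034, minus strand) was at 32.2, 41.6, 54.2 and 47.0 CPM. The aged pools were above the young ones with a small gap on platform B, and the log2 difference was 0.41 ± 0.182 (SE, edgeR adjusted p = 0.372). Tcf15 (chr2:152143561-152149097, plus strand), a basic helix-loop-helix factor that marks quiescent HSCs, was at 37.2, 1.28, 66.0 and 5.89 CPM. These levels rest on 1356, 21, 1372 and 196 UMIs. Both B pools lay below both A pools, and the aged pool was above the young one within each platform. The log2 difference between ages was 1.29 ± 0.371 (SE, edgeR adjusted p = 0.185). With 1 pool left out the block leaves no residual degree of freedom, so those fits dropped it and set pools of different platforms against each other. Fitted so, Tcf15 was called without young A (log2 difference 4.47, edgeR adjusted p = 6.36e-07) and was at -1.52 without aged A, while within platform A it was 0.83 and within platform B larger and also positive.

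**Figure D1:**
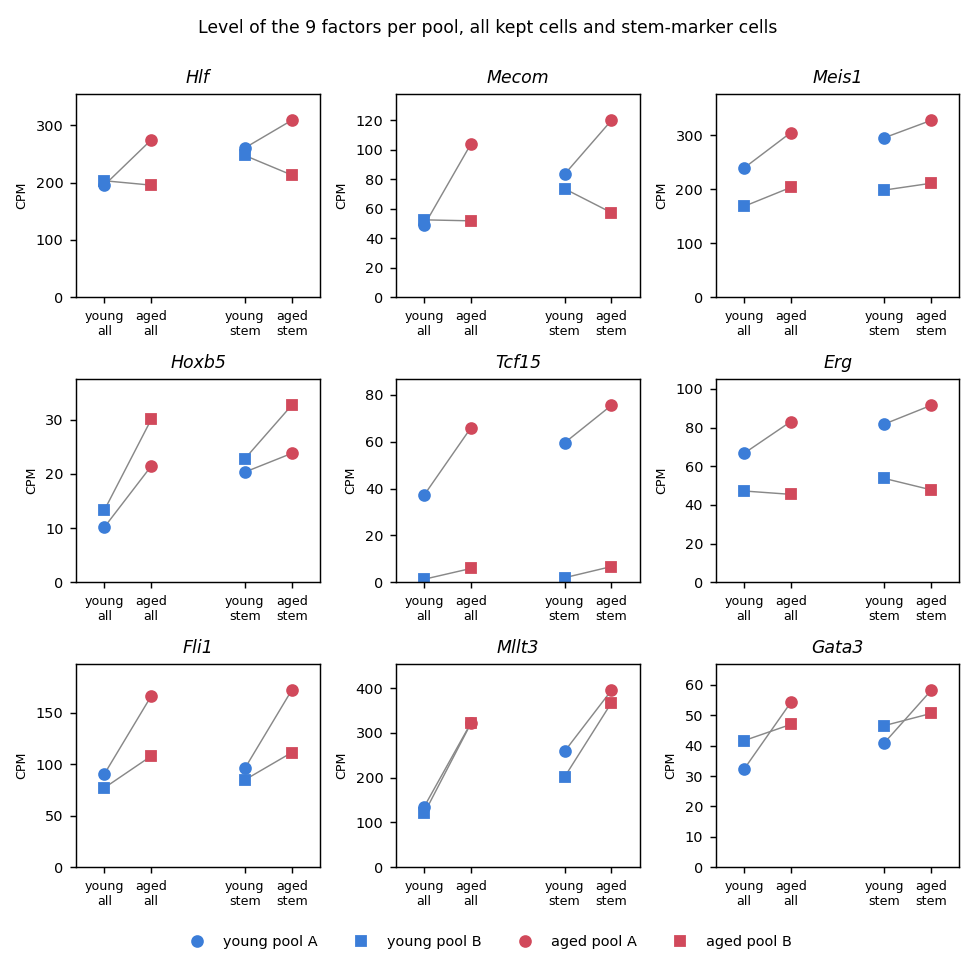
Level of each factor (CPM, y axis from 0) in all kept cells and in stem-marker cells, 1 point per pool, circles for platform A and squares for platform B, with lines joining the pools of 1 platform. Mllt3, Hoxb5 and Fli1 lie higher in both aged pools, Hlf, Mecom and Erg move in opposite directions on the platforms (with TMM scaling Mecom on platform B turns slightly upward), and Tcf15 is near 0 on platform B.

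In the annotation (GENCODE M21, GRCm38) all 9 genes are protein coding. Gene models on the same strand overlap the span of Mecom (5), Fli1 (5), Meis1 (3) and Gata3 (1). Models on the opposite strand overlap all of these genes and also Hoxb5 (Hoxb5os). Reads of the genes named could thus in part belong to the overlapping models. Whether counting used strand was not given in the sources used here. No other gene overlaps Hlf, Tcf15, Erg or Mllt3.

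The cells of a pool were then divided by markers, with none of the 9 factors among them. A cell was put in a lineage class (erythroid, megakaryocyte, neutrophil, mast, lymphoid or B) when it held UMIs of at least 3 of the 8 markers of that class, and cells with fewer than 3 of every list were unprimed, and ties were set aside. Unprimed cells with at least 3 of 8 stem markers (such as Procr, Slamf1, Fgd5 and Esam) and no UMI of Cd48 or Flt3 are called stem-marker cells here. They made up 26.9%, 37.3%, 58.8% and 79.3% of cells. Several of these markers were themselves higher in aged pools, such as Slamf1 (10.3, 9.02, 42.5 and 45.5 CPM) and Sult1a1 (27.1, 37.3, 249 and 319 CPM). The class is thus a range of marker content and not a fixed cell type. Of the stem-marker cells, 716, 420, 481 and 742 held exactly 3 markers. A shorter list of 5 stem markers, used as an alternative, left out Slamf1, Procr and Esam but kept Sult1a1.

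Within unprimed cells, again no factor passed the test between ages, beside 1.95% of genes called (edgeR, either direction). Mllt3 was at 169.7, 139, 366 and 345 CPM, without overlap, at a log2 difference of 1.17 ± 0.204 (SE, edgeR adjusted p = 0.0734). DESeq2 called it (adjusted p = 5.65e-04), and it was the only factor that DESeq2 called in unprimed cells.

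Within stem-marker cells, no factor passed either, beside 0.736% of genes called (edgeR, either direction). An unadjusted p under 0.05 was found for 2 of the 9, beside 1382 of the 12234 genes tested. DESeq2 also called none there. Mllt3 was at 259, 202, 395 and 367 CPM, still without overlap, at a log2 difference of 0.71 ± 0.213 (SE, edgeR adjusted p = 0.292) against 1.29 in all cells. Fli1 was at 96.1, 84.9, 172 and 111 CPM, and its log2 difference of 0.59 ± 0.180 (SE, edgeR adjusted p = 0.298) was close to that in all cells (0.63).

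Hoxb5 was at 20.3, 22.8, 23.8 and 32.6 CPM, so young B and aged A nearly met, and its log2 difference was 0.34 ± 0.197 (SE, edgeR adjusted p = 0.641) against 1.07 in all cells. Mecom reached 83.3, 73.4, 119.8 and 57.3 CPM, with the aged pool higher on platform A and lower on platform B, for a log2 difference of 0.054 ± 0.229 (SE, edgeR adjusted p = 0.967). Hlf and Erg showed the same crossing, with log2 differences of -0.016 ± 0.199 (SE, edgeR adjusted p = 0.991) and -0.034 ± 0.163 (SE, edgeR adjusted p = 0.970). Gata3, Meis1 and Tcf15 had log2 differences of 0.28 ± 0.166, 0.087 ± 0.187 and 0.76 ± 0.363 (SE, edgeR adjusted p = 0.650, 0.925 and 0.552). The share of stem-marker cells moved with age in the pools, and its part in the differences over all cells was not tested.

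**Figure D2:**
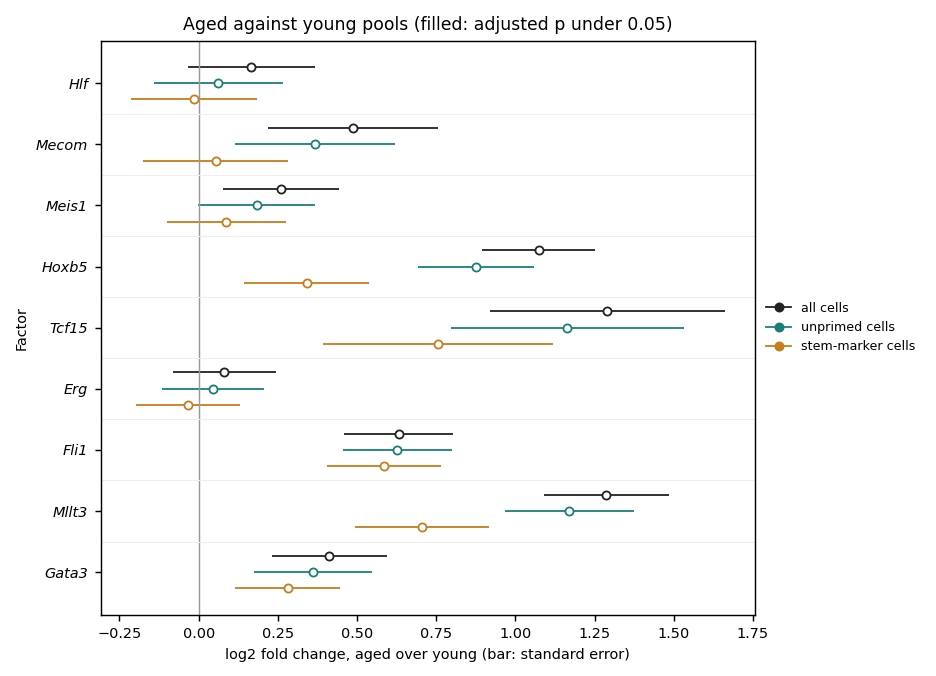
Log2 fold change of each factor between aged and young pools (x axis; bars are standard errors, 2 pools per age) in all cells, unprimed cells and stem-marker cells. No point is filled, since no adjusted p fell under 0.05, and the values of Mllt3, Hoxb5 and Mecom shrink toward 0 from all cells to stem-marker cells while those of Fli1 change little.

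Against unprimed cells with a UMI of Cd48 or Flt3, markers of multipotent progenitors, stem-marker cells had higher levels of 8 of the 9 factors (edgeR with pool as a block), beside 10.5% of genes called as higher. Mllt3 had the largest log2 difference, at 259, 202, 395 and 367 CPM in stem-marker cells and 94.2, 60.8, 192 and 195 CPM in Cd48- or Flt3-marked cells. It was higher in the stem-marker cells of every pool, at a log2 difference of 1.32 ± 0.0728 (SE, edgeR adjusted p = 3.54e-15). Hoxb5 went from 20.3, 22.8, 23.8 and 32.6 CPM to 6.22, 5.68, 26.1 and 16.0 CPM, and lay lower in the marked cells of all pools but aged A, at a log2 difference of 1.28 ± 0.188 (SE, edgeR adjusted p = 3.40e-06).

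Mecom had a log2 difference of 0.83 ± 0.0845 (SE, edgeR adjusted p = 4.22e-09) and Tcf15 one of 0.74 ± 0.123 (SE, edgeR adjusted p = 2.34e-05). The differences of Gata3 (0.34 ± 0.0941), Fli1 (0.26 ± 0.0631), Meis1 (0.23 ± 0.0523) and Hlf (0.21 ± 0.0556) were smaller, with edgeR adjusted p = 0.00797, 0.00244, 0.00128 and 0.00532. In aged A, Hlf went the other way, at 309 CPM in stem-marker cells and 320 CPM in marked cells. Erg was the factor not called, at 0.13 ± 0.0784 (SE, edgeR adjusted p = 0.262), with 81.8, 53.7, 91.5 and 47.8 CPM in stem-marker cells and 70.5, 56.5, 94.2 and 33.9 CPM in marked cells. Without young A, 5 of the 9 factors were called, and Hlf, Tcf15 and Gata3 were not among them. Gata3 was also lost without aged B and with DESeq2.

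Erythroid-marker cells had lower levels of all 9 factors than stem-marker cells, beside 27.5% of genes called as higher in stem-marker cells (edgeR). Among the 9, Mecom, Gata3, Hoxb5 and Tcf15 rest on the lowest levels in a class of 182, 50, 86 and 52 cells. Gata3 was at 15.5, 3.95, 15.1 and 14.0 CPM. Hoxb5 was at 3.58, 3.95, 4.53 and 14.0 CPM and Tcf15 at 8.94, 0, 12.1 and 0 CPM. Mecom was at 9.54, 5.92, 18.1 and 7.97 CPM there, against 83.3, 73.4, 119.8 and 57.3 CPM in stem-marker cells, a log2 difference of 2.94 ± 0.251 (SE, edgeR adjusted p = 3.03e-11). Hlf was at 43.5, 25.6, 49.8 and 39.9 CPM, below the stem-marker cells of every pool, at 2.60 ± 0.162 (SE, edgeR adjusted p = 2.31e-14). The smallest of these differences was that of Fli1, 1.36 ± 0.176 (SE, edgeR adjusted p = 1.11e-07).

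Megakaryocyte-marker cells express platelet genes such as Pf4. Of the 9 factors, 5 were higher in stem-marker than in megakaryocyte-marker cells (Hlf, Mecom, Hoxb5, Erg and Mllt3), beside 14.0% of genes, and 1 was lower, beside 15.6%. The 1 lower was Fli1, at 128, 120.3, 223 and 141 CPM in megakaryocyte-marker cells, higher than in the stem-marker cells of all 4 pools, with a log2 difference of -0.38 ± 0.122 (SE, edgeR adjusted p = 0.0192) for stem-marker over megakaryocyte-marker cells. Meis1 was at 246, 191, 308 and 193 CPM and differed from stem-marker cells by 0.16 ± 0.106 (SE, edgeR adjusted p = 0.263). Tcf15 and Gata3 differed by 0.35 ± 0.182 and 0.37 ± 0.156 (SE, edgeR adjusted p = 0.149 and 0.0748). Without young A only Hlf, Mecom and Mllt3 were called in this contrast, and without young B these 3 and Erg, while without aged A all but Meis1 were called. Megakaryocyte-marker cells of both aged pools held a median of 4 stem markers, against 2 in both young pools, with Procr at 114 CPM in aged A, 41.8 in young A and, on platform B, also higher in the aged pool. With 4 markers needed, an alternative added after these values were seen that left 100, 12, 50 and 48 cells, Procr was at most 40.0 CPM. Then 8 factors were called, 7 higher in stem-marker cells, with Meis1, Tcf15 and Gata3 among them and without Hoxb5. Beside them, 1975 of 9534 genes were called as higher, against 1452 of 10374 with 3 markers. The median log2 difference went from 0.43 to 0.85 over the 9 factors and from 0.023 to 0.080 over all genes tested. Thinned to 3000 UMIs, Tcf15 and Gata3 were also called and Fli1 was not, beside 570 of 5512 genes called as higher.

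Mast-marker cells had lower levels of 8 of the 9 factors, beside 15.0% of genes called as higher in stem-marker cells. Of these, Mecom, Gata3, Hoxb5 and Tcf15 rest on the lowest levels in a class of 180, 48, 60 and 24 cells. Mecom was at 19.0, 15.4, 34.4 and 0 CPM there and Gata3 at 9.82, 7.72, 41.2 and 12.3 CPM. Hoxb5 was at 2.62, 2.57, 11.5 and 12.3 CPM and Tcf15 at 20.3, 0, 41.2 and 0 CPM. In young B and aged B, Tcf15 was also low in stem-marker cells (1.94 and 6.70 CPM). Mllt3 differed by 2.22 ± 0.266 (SE, edgeR adjusted p = 6.03e-08) and Mecom by 1.99 ± 0.242 (SE, edgeR adjusted p = 8.63e-08), while Fli1, at 95.5, 61.8, 158 and 67.4 CPM, differed by 0.11 ± 0.162 (SE, edgeR adjusted p = 0.652). Scaling by total counts in place of TMM moved the median of all genes in this contrast from 0.059 to 0.16 on the log2 scale and the same 8 factors were called. Without young A, Hoxb5 and Tcf15 were not called. With total counts and all 4 pools, the share of called genes that were higher in stem-marker cells moved from 48.2% to 61.4%.

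Neutrophil-marker cells had lower levels of all 9 factors, beside 15.2% of genes called as higher in stem-marker cells, with the largest difference for Mllt3, 1.50 ± 0.190 (SE, edgeR adjusted p = 3.23e-07). Tcf15 was at 22.7, 0, 57.1 and 1.59 CPM in this class. Without young A, Tcf15, Erg and Fli1 were not called, and Fli1 was not called without either B pool. In aged A this class also held stem genes. Procr was at 159 CPM there, against 53.3 in young A, 61.8 in young B and 36.5 in aged B, and Mllt3 was at 69.5, 47.2, 273 and 46.0 CPM. Prtn3, 1 of the 8 neutrophil markers, was found in the stem-marker cells of every pool (477 to 1322 CPM). With 4 markers needed in place of 3, all 9 factors were again lower in neutrophil-marker cells, and the log2 difference of Mllt3 was 2.24. Beside them, 2323 of 9534 genes were called as higher in stem-marker cells. With cells thinned to 3000 UMIs before classing, Hoxb5 did not pass the filter on low counts and was not tested against any lineage class, and Fli1 was no longer called against megakaryocyte- and neutrophil-marker cells.

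Gata3 was the 1 factor with its highest level in lymphoid-marker cells, at 217, 178, 292 and 96.7 CPM, above the stem-marker cells of every pool (41.0, 46.6, 58.2 and 50.6 CPM in the same order). The class held 26, 17, 7 and 5 cells, and these levels rest on 42, 19, 9 and 5 UMIs, so it was not tested. The other 8 factors were highest in stem-marker cells, as the mean of 4 pools, except Fli1 in megakaryocyte-marker cells. Neighbours in this order often did not separate. Stem-marker cells exceeded the next class in all 4 pools for Mecom, Hoxb5 and Mllt3, in 3 pools for Hlf, Meis1 and Tcf15 and in 2 pools for Erg. Erythroid-marker cells were lowest for Hlf, Mecom, Meis1, Erg, Fli1 and Gata3, and lymphoid-marker cells for Hoxb5, Tcf15 and Mllt3.

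**Figure D3:**
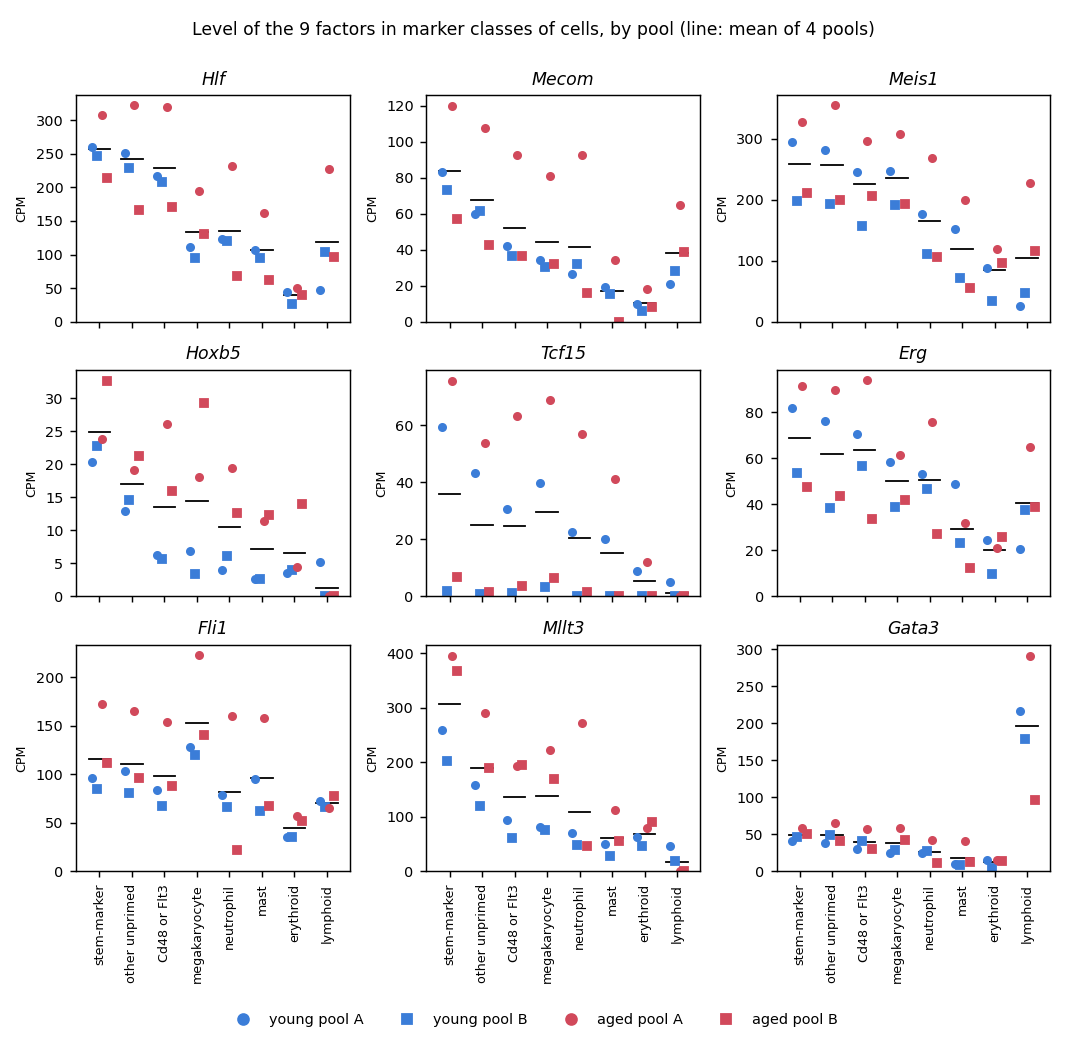
Level of each factor (CPM, y axis from 0) in 8 marker classes of cells, 1 point per pool (circles platform A, squares platform B) and a line at the mean of 4 pools. Most factors step down in mean level from stem-marker to erythroid-marker cells, Fli1 peaks in megakaryocyte-marker cells and Gata3 in the few lymphoid-marker cells.

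Whether the age difference itself differed between stem-marker and Cd48- or Flt3-marked cells was tested with a class by age term. It was called for 1 factor, Mllt3, whose age difference was smaller in stem-marker cells, with a term of -0.52 ± 0.112 on the log2 scale (SE, edgeR adjusted p = 0.0386), beside 0.223% of genes called in this direction. In the marked cells, the log2 difference of Mllt3 between ages was 1.03 on platform A and 1.68 on platform B, against 0.61 and 0.86 in stem-marker cells. The call was lost with DESeq2 (adjusted p = 0.0588), with cells thinned to 3000 UMIs (0.202), without young B (0.231) and without aged B (0.185). Hoxb5 had the largest term, -1.35 ± 0.323 (SE, edgeR adjusted p = 0.0833), with 6.22, 5.68, 26.1 and 16.0 CPM in marked cells, where aged pools were above young ones without overlap. Without aged B the term of Hoxb5 was called (edgeR adjusted p = 0.00425). Mecom had a term of -0.49 ± 0.157 (SE, edgeR adjusted p = 0.353). The marked cells numbered 1281, 443, 210 and 128. They held a median of 2, 2, 3 and 3 stem markers, with Procr at 97.2, 92.7, 170 and 141 CPM. The marked class thus also shifted with age, and the part of this in the terms was not tested.

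Unprimed cells with UMIs of at least 3 of 8 division genes (Mki67, Top2a and others) were compared with unprimed cells without any. Dividing cells had lower levels of 8 of the 9 factors, beside 21.4% of genes called as lower (edgeR, pool as a block). Mllt3 was at 56.8, 51.0, 133 and 112 CPM in dividing cells and 211, 168, 392 and 389 CPM in non-dividing cells. Every pool showed a drop, and the log2 difference was -1.77 ± 0.0694 (SE, edgeR adjusted p = 1.56e-14). Hoxb5 was at 4.62, 6.77, 10.3 and 17.8 CPM in dividing cells, against 16.4, 19.1, 23.6 and 34.1 CPM, a log2 difference of -1.27 ± 0.158 (SE, edgeR adjusted p = 1.36e-06). Its level was lower in the dividing cells of all 4 pools. The 2 groups also differed in class make-up. Without dividing cells, 1074, 365, 196 and 101 of the 1281, 443, 210 and 128 Cd48- or Flt3-marked cells were left. Of the 1395, 838, 1957 and 3294 stem-marker cells, 1327, 792, 1907 and 3116 were left, a larger part in every pool. The part of class make-up in this contrast was not tested.

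Mecom (-0.90 ± 0.0887), Tcf15 (-0.76 ± 0.136), Hlf (-0.62 ± 0.0845), Meis1 (-0.56 ± 0.0598) and Gata3 (-0.52 ± 0.0920) followed (log2 difference ± SE, edgeR adjusted p = 4.84e-08, 1.17e-04, 4.10e-06, 1.50e-07 and 9.44e-05). Both Ets factors moved least, Erg by -0.30 ± 0.0969 (SE, edgeR adjusted p = 0.0174) and Fli1, not called, by -0.17 ± 0.0720 (SE, edgeR adjusted p = 0.0623). The median over the 9 factors was -0.62, against -0.02 over all genes tested. Dividing cells held more UMIs than non-dividing ones in every pool (medians of 9346 to 12076 against 5190 to 6213). With cells thinned to 3000 UMIs before classing, 6 factors were called, without Erg and Gata3. Erg was also lost without young A and without aged B.

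**Figure D4:**
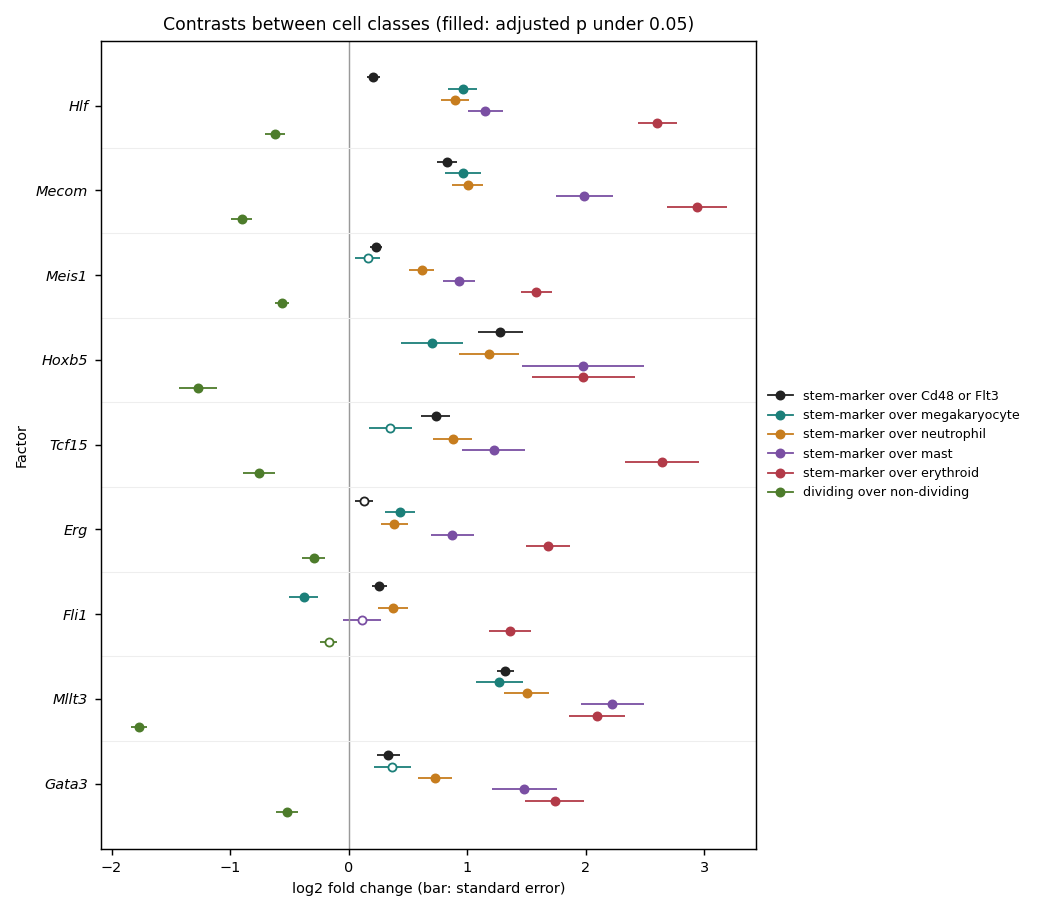
Log2 fold change of each factor (x axis; bars are standard errors, 4 pools) for stem-marker cells over 5 other classes and for dividing over non-dividing unprimed cells. Filled points have an adjusted p under 0.05, and the lone filled point left of 0 among the stem-marker contrasts is Fli1 against megakaryocyte-marker cells.

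To compare single cells, each cell was thinned at random to 3000 UMIs, and 0, 50, 176 and 4 shallower cells were left out. At that depth a UMI of Mllt3 was seen in 31.0%, 28.3%, 55.7% and 56.3% of cells. The aged shares lay above the young ones without overlap for Mllt3, Hoxb5, Fli1 and Gata3, the same 4 factors as by level, and an exact two-sided permutation test of 2 pools against 2 gave p = 0.333 for each, the smallest it can give. For shares of cells, how many of all genes were without overlap was not counted. Hoxb5 was seen in 3.47%, 4.92%, 6.28% and 8.46% of cells. Tcf15 was seen in 11.5%, 0.638%, 16.8% and 1.81%, with both B pools far below both A pools. Without thinning the share of Mllt3 was 47.5%, 45.1%, 71.8% and 77.6%.

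Erythroid-marker cells, in which most of these factors are known to be low, served as the reference for stray UMIs, although some of these cells may express them. Mecom was seen in 7.14%, 6.00%, 10.5% and 7.69% of erythroid-marker cells and in 38.4%, 38.1%, 49.1% and 34.5% of stem-marker cells, not thinned. The former were the deeper cells in every pool, with medians of 7866, 9898, 6626 and 9657 UMIs against 5660.0, 6026, 5595 and 6636. Mllt3 was seen in 40.1%, 32.0%, 32.6% and 42.3% of erythroid-marker cells and 68.1%, 61.2%, 80.2% and 83.6% of stem-marker cells. The shares were thus higher in stem-marker cells of every pool for both factors, at lower depth.

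At 3000 UMIs a cell held UMIs of 2.10, 1.78, 2.95 and 2.22 of the 9 factors on average. Both aged pools were above both young pools, by 0.646 factors in the mean (exact two-sided permutation test, p = 0.333). Cells without any of the 9 made up 11.9%, 15.3%, 4.98% and 8.34% of the pools. Cells with 5 or more were 4.74%, 2.14%, 13.8% and 4.39% of the pools, where aged A was highest and aged B lay between the young pools. Cells were classed after thinning, which gave 821, 440, 1588 and 2234 stem-marker cells and 102, 26, 53 and 28 erythroid-marker cells. In stem-marker cells the mean was 2.73, 2.27, 3.19 and 2.47, and in erythroid-marker cells 0.608, 0.269, 0.811 and 0.750. Every pool had its higher mean in stem-marker cells. Over the 36 pairs of factors, seeing both in 1 cell was only weakly associated within pools (phi between -0.028 and 0.13, cells thinned to 3000 UMIs). The pair Hlf and Mllt3 had the highest values, 0.094 to 0.13 over the 4 pools.

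**Figure D5:**
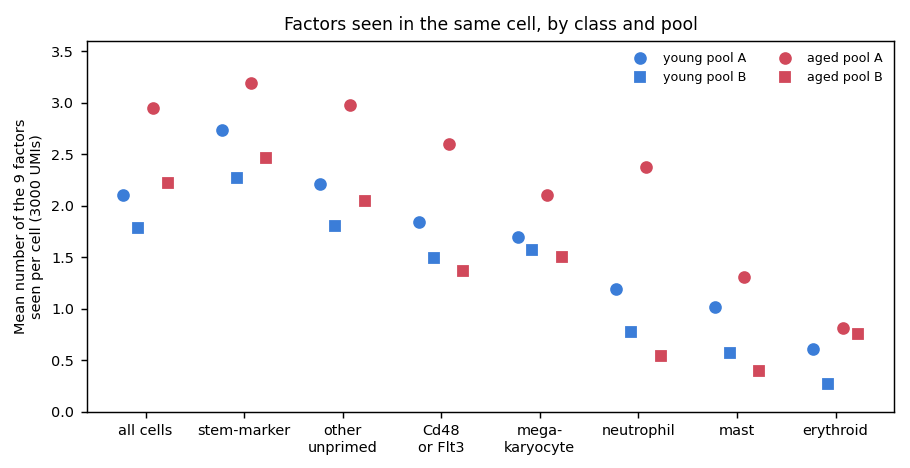
Mean number of the 9 factors with a UMI per cell (y axis) after thinning to 3000 UMIs, for all cells and 7 classes, 1 point per pool (circles platform A, squares platform B). Cells were classed after thinning, which left as few as 14 in a class (megakaryocyte-marker cells of young B). The stem-marker cells of each pool are above those of its lineage classes, and aged A is the highest pool in all classes shown.

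Genes that work with the 9 factors, or are their nearest relatives, were read from the same age test over all cells. Of 49 listed genes, all tested, 4 were called as higher in aged pools and 0 as lower, beside the background of 1.6% of genes called as higher. Their median log2 difference was 0.31, against 0.012 over all genes. The list was chosen with earlier results of these data known, so neither its count nor its median is an independent measure. The called genes were Id3, an inhibitor of helix-loop-helix factors, the Meis1 relatives Meis2 and Meis3, and Hoxb6, a neighbour of Hoxb5 in the HoxB cluster. Id3 was at 0.988, 0.427, 19.7 and 3.33 CPM, a log2 difference of 3.81 ± 0.366 (SE, edgeR adjusted p = 0.0217). Hoxb6 was at 1.76, 1.59, 9.91 and 12.1 CPM, a log2 difference of 2.64 ± 0.252 (SE, edgeR adjusted p = 0.0217). Both rose without overlap from low levels.

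Meis2 was at 0.741, 0.793, 5.29 and 3.64 CPM, a log2 difference of 2.48 ± 0.351 (SE, edgeR adjusted p = 0.0452). Meis3 was at 2.74, 2.93, 10.6 and 9.94 CPM, a log2 difference of 1.80 ± 0.203 (SE, edgeR adjusted p = 0.0271). Both thus rose with age, while Meis1 itself, at far more UMIs, was not called. Cdkn1a, a cell cycle inhibitor, was at 7.41, 10.1, 58.6 and 16.2 CPM, a log2 difference of 1.80 ± 0.540 (SE, edgeR adjusted p = 0.197) that was not called. By group, 0 of 9 Meis and Hox partners, 0 of 7 genes that bind with Erg and Fli1, 0 of 7 other Ets and stem cell factors, 0 of 4 relatives of Hlf and Mecom and 0 of 6 genes of the Mllt3 complex were called. Of 6 helix-loop-helix partners and inhibitors of Tcf15, 1 was called (Id3), of 5 other relatives, 3 were called, and of 5 genes known to act downstream, 0 were called. Fits without 1 pool also dropped the platform block, and dropping the block alone, with all pools, already left none of the 49 called. In those fits none was called without aged A or without aged B, without young B only Id3 and Hoxb6 were called, and without young A Id1, Id3, Hoxb6 and Cdkn1c were.

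Over 28 sums of cells (7 classes in each of 4 pools, which share libraries, platforms and classes), the genes whose log2 level followed that of a factor most closely were taken from 7675 genes, as a description. For Hlf they were Sirt3 (0.96), Gm19590 (0.95) and Mfng (0.95), with Pearson's r in brackets. Mecom was followed by Ipo11 (0.96), B4galt4 (0.96) and Appl2 (0.96). The closest to Meis1 were Scarf1 (0.96), Angpt1 (0.95) and Efcc1 (0.94), and those to Hoxb5 Cpne8 (0.90), Npdc1 (0.89) and Clec1a (0.88). Tcf15 varied with Zfand5 (0.97), Ampd2 (0.97) and Cited2 (0.96). For Erg the genes were Lzts2 (0.94), Efcc1 (0.93) and Csad (0.92), for Fli1 Csgalnact1 (0.90), Bicd1 (0.87) and Rgs18 (0.87), for Mllt3 Fam213a (0.95), Tmem246 (0.92) and Tsc22d1 (0.92) and for Gata3 Myct1 (0.93), Angpt1 (0.93) and Dcun1d1 (0.93). Among the 9 factors, r was highest for Meis1 with Erg (0.92) and lowest for Hoxb5 with Tcf15 (0.26).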

How the data were processed

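The deposited matrices hold UMI counts per gene and cell, made by the authors with Cell Ranger 2.2.0 from 10x 3' version 2 libraries against mm10. For each pool, barcodes more than 2 SD from the mean of the log UMI counts were dropped (14915 of 15566 barcodes stayed), which gave 36446168, 16399999, 20788935 and 33286187 UMIs (young A, young B, aged A, aged B). No doublet caller was run, and cells with equal numbers of markers of several lineages were set aside. Counts were summed per pool and cell class and tested with edgeR 4.0.16 (R 4.3.3; quasi-likelihood test, TMM scaling, filterByExpr, Benjamini-Hochberg adjustment over all genes tested, threshold 0.05). The age fits held the platform letter as a block, since the study's methods describe A and B as independent batches, and same-lettered pools deviated together (r = 0.49 over 13555 genes). Class fits held the pool as a block. Contrasts with lineage classes were read from 1 joint fit over 7 classes. Standard errors were derived from the F statistic. Alternatives were DESeq2 1.42.0, total-count scaling, no filter on low counts, no block, all barcodes, cells thinned to 3000 UMIs, other marker thresholds and each pool left out (age fits then without the block). Shares and numbers of factors per cell were compared by exact permutation over pools. All 9 factors were named in every comparison, and of the 49 partner genes those called or among the 5 largest changes. The factors, marker lists and partner genes were chosen with earlier results of these data known. On simulated counts the age test found 70 of 100 2-fold and 99 of 100 4-fold changes, with 0 false calls among 13431 genes. The class by age test found 18 of 100 2-fold and 77 of 100 4-fold changes, with 5 false calls, among 11568 genes, and the class contrast made 6 false calls among 11523. The simulation used a fixed dispersion and, for each gene, the same platform effect at both ages. In the real pools the log2 age difference of Mecom was 1.09 on platform A and -0.019 on platform B. The simulation also gave the smaller class the same part of every pool. That part exceeded what Cd48- or Flt3-marked cells held in aged A and aged B (1263862 and 1122514 UMIs) and fell short of it in both young pools. Rates in the real counts may thus differ. Promoters were read from RefSeq tables of GRCm38.p6 and gene spans from GENCODE M21, and the annotation release behind the counts was not given in the sources used here.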

Additional observations from a re-analysis of the deposited data

Results flagged for a closer look

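The age difference of Mllt3 differed between classes by the class by age test, with a term of -0.52 on the log2 scale for stem-marker against Cd48- or Flt3-marked cells, and the call was lost with DESeq2, with thinned cells and without either B pool. The marked cells themselves held more stem markers in aged pools, and the part of this in the term was not tested. For 3 factors the aged and young pools differed in opposite directions on the platforms in all cells, and these differences between platforms were not tested, with 1 pool per age on each. Reads per cell and mice per pool crossed in the same way, higher in aged A and young B. Their part in these differences cannot be told apart. The log2 difference of Hlf was 0.49 on platform A and -0.055 on platform B. For Mecom it was 1.09 on platform A and -0.019 on platform B, where TMM scaling turned it slightly above 0, and for Erg 0.32 and -0.054.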

How the results depend on the processing

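In all cells, the number of the 9 factors called between ages rose from 0 to 3 with DESeq2, to 2 without a filter on low counts or with all barcodes and to 1 with cells thinned to 3000 UMIs. Genes called in either direction numbered 275 of 13555 in the main fit. In the order above they were 543 of 13555, 774 of 19025, 349 of 13716 and 314 of 12375. In unprimed cells it was 1 with DESeq2, with total counts and with 4 lineage markers (added after seeing the data). Genes called there were 464 of 13100, 322 of 13100 and 381 of 13398, against 255 of 13100 in the main fit. The class by age term was called for 0 factors with DESeq2 and with thinned cells, and for 2 with total counts, without the filter and with 5 stem markers. Genes with a called term were 15 of 11638, 16 of 9516, 50 of 11638, 79 of 18271 and 49 of 11699. The main fit called 36 of 11638. Partner genes called numbered 8 with DESeq2, beside 543 of 13555 genes called in that fit. Without the replicate block 0 partner genes and 0 of the 9 factors were called in all cells, where edgeR then called 0 of 13555 genes, with 1103 at an unadjusted p under 0.05, although the pairing by platform comes from the study's methods.

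Among log2 differences that were not called, stem-marker Hlf turned to 0.016 (total counts), 0.0040 (no filter), 0.021 (thinned), 0.0064 (2 lineage markers), 0.0055 (without dividing cells), 0.0099 (5 stem markers) and 0.024 (4 stem markers seen). Stem-marker Mecom turned to -0.085 (thinned) and -0.035 (4 stem markers seen), Hoxb5 to -0.035 (thinned) and Erg to 0.018 (5 stem markers). The class by age term turned to -0.012 for Fli1 and -0.042 for Gata3 (total counts), and to 0.090 for Meis1 and -0.073 for Erg (thinned). Fli1 against mast-marker cells turned to -0.11 (thinned). On platform B alone, all cells gave -0.055 for Hlf, -0.019 for Mecom and -0.054 for Erg. The cause of these changes was not tested.

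Leaving out 1 pool at a time (age fits then had no platform block, for want of residual degrees of freedom, so these ranges hold both changes, and a lone pool is assumed to vary like the others), the age test called 0 to 1 factors in all, unprimed and stem-marker cells (Tcf15 without young A), 5 to 8 against Cd48- or Flt3-marked cells, 0 to 1 in the class by age test, 3 to 8 against megakaryocyte-marker cells and 0 to 4 partner genes. The 5 against Cd48- or Flt3-marked cells and the 3 against megakaryocyte-marker cells came without young A. There 1523 of 11061 and 1511 of 9826 genes were called, the fewest of these fits. In all cells Tcf15 ran from -1.52 to 4.47 and Erg from -0.20 to 0.33. In unprimed cells Hlf ran from -0.067 to 0.18, Mecom from -0.0089 to 0.73, Tcf15 from -1.69 to 4.39 and Erg from -0.29 to 0.34. In stem-marker cells Hlf ran from -0.13 to 0.079, Mecom from -0.33 to 0.41, Meis1 from -0.10 to 0.23, Hoxb5 from -0.067 to 0.71, Tcf15 from -1.99 to 4.06 and Erg from -0.36 to 0.25. The class by age term ran from -0.25 to 0.094 for Hlf, -0.11 to 0.40 for Erg, -0.13 to 0.12 for Fli1 and -0.28 to 0.42 for Gata3. Differences in the share of cells (percentage points) ran from -1.81 to 9.42 for Hlf, -0.70 to 12.0 for Mecom, -1.20 to 14.5 for Meis1, -4.25 to 10.8 for Tcf15 and -2.15 to 6.18 for Erg. Shares did not overlap between ages for 4 to 9 factors, with no such count made over all genes. The 9 came without aged B, with aged A alone set against 2 young pools, which is easier to meet than 2 against 2. At 3000 UMIs per cell, Hoxb5 was too low to be tested against lineage classes.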
